A study of Mus musculus with 4 samples.

Results

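The genes described here encode the SLC25 mitochondrial carriers. They were taken as all protein-coding autosomal genes of the GRCm38 RefSeq table whose symbols begin with Slc25a, which gave 43 of 20661 autosomal protein-coding genes. SLC25 proteins are small membrane proteins that move metabolites, nucleotides, cofactors and ions across the inner mitochondrial membrane, mostly as exchangers that trade one solute for another. In the liver they link the cytosol with the mitochondrial part of urea synthesis, gluconeogenesis, fatty acid oxidation and lipogenesis. A few have left the inner membrane: Slc25a17 acts in peroxisomes and Slc25a46 sits in the outer membrane.

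The data were peak lists of H3K23pr, propionylated lysine 23 of histone H3, from chromatin immunoprecipitation (IP) of liver from male C57BL/6 mice. Control liver was RPN11 flox/flox and is called WT after its title, and the other liver was an RPN11 hepatocyte-specific knockout, called KO. RPN11 is a deubiquitylating subunit of the proteasome. Each genotype had 1 IP and 1 input library, 4 in all. The labels do not name the Cre driver or say how many mice gave each library, and cells other than hepatocytes keep the gene. Peaks give no expression of liver markers, so the tissue label was not checked. Every comparison of WT with KO below is between 1 library and 1 library, with no replicate check and no p-value. After duplicate filtering the IPs held 13615838 fragments in WT and 15468265 in KO, with mean fragment sizes of 97 and 71 bp. Depth, fragment size and genotype therefore cannot be told apart.

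A gene was said to have a peak when a peak of a list touched the gene or the 2 kb on either side of it. In WT, 16 of the 43 carrier genes had a peak, 37.2% (exact binomial 95% interval 23 to 53.3), against 43.1% of all autosomal protein-coding genes. In KO, 11 had a peak, 25.6% (13.5 to 41.2), against 30.5% of all genes. Both lists had a peak in 7 carrier genes, 16.3% (6.81 to 30.7) against 22.4%. A WT peak alone was found in 9, 20.9% (10 to 36) against 20.8%, and a KO peak alone in 4, 9.30% (2.59 to 22.1) against 8.06%. Each of these shares lay near that of all genes, and all 5 intervals held it. With peaks of caller q 0.05 or smaller, the peak caller's p adjusted over its list, the order of the genotypes turned: 5 carrier genes had a WT peak and 7 a KO peak, where 10.6% and 15% of all genes had one. That cutoff kept 5186 WT and 11416 KO peaks in all. It did not treat equal heights alike: a peak of 6 fragments over the lowest local background passed it in KO but not in WT. With summits of at least 5 fragments the counts were 15 WT and 9 KO genes, against 36% and 24.1% of all genes. They were 9 and 7, against 26.2% and 20.1%, when each list was cut to its 20000 strongest peaks.

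The lists held 49 WT peaks and 41 KO peaks at carrier genes. Slc25a21 alone held 16 and 21 of them, and without it 33 and 20 remained. Per length of gene and flank, this was 27.5 peaks per Mb in WT (exact Poisson 95% interval 20.3 to 36.3) and 22.98 in KO (16.49 to 31.2). Over all autosomal protein-coding genes the densities were 23.8 and 18.1 per Mb. Without Slc25a21 they were 25.5 (17.5 to 35.8) and 15.4 (9.43 to 23.9). More WT than KO peaks were found in 12 genes, more KO than WT peaks in 7, and 1 each in Slc25a33. The bar plot of peaks per gene gives the genes with a peak that are named here.

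**Figure D1:**
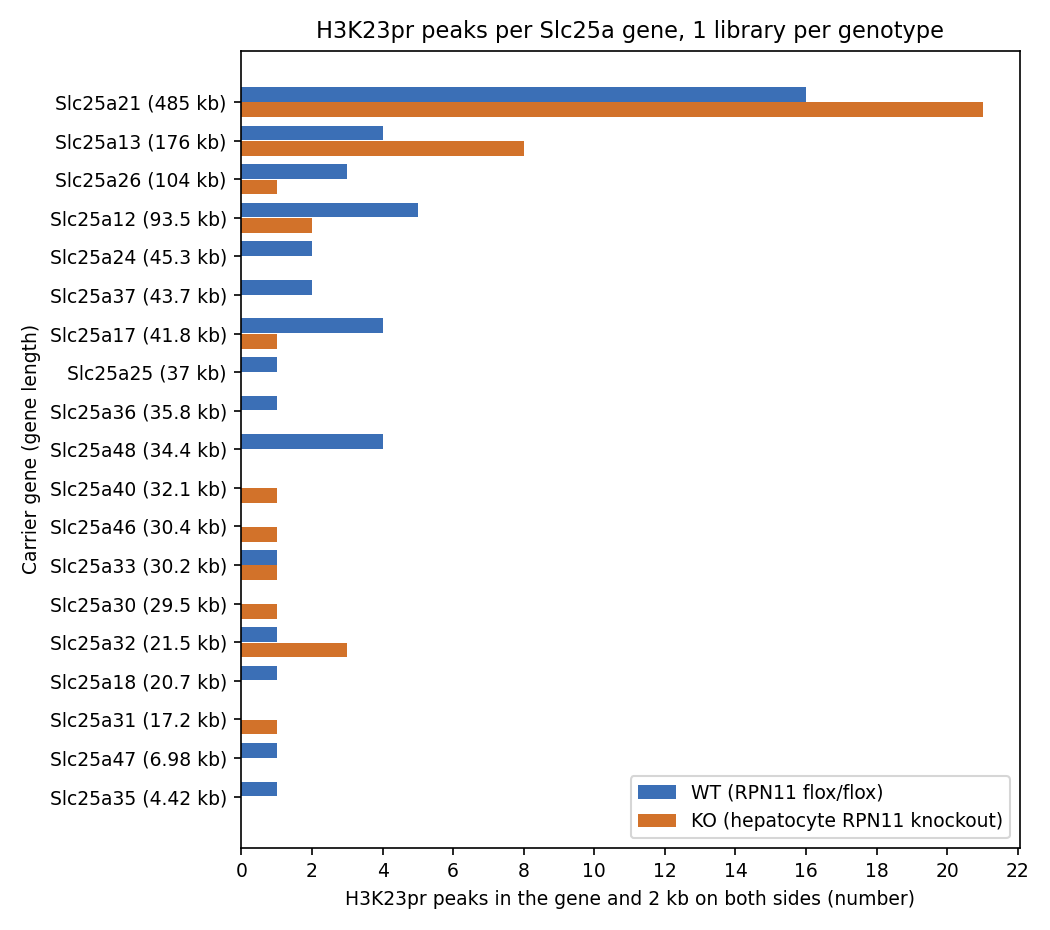
Number of H3K23pr peaks (horizontal axis) in the WT list (blue) and the KO list (orange) for the named carrier genes with a peak, ordered by gene length, which is given in kb beside each name. Slc25a21 stands above the rest with 16 WT and 21 KO peaks, followed by Slc25a13 with 4 and 8.

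Carrier genes with a peak were longer. The 20 carrier genes with a peak in either list had a median length of 33.3 kb, and the 23 without had a median of 10.0 kb. Among the 21 carrier genes shorter than 20 kb, 3 had a WT peak and 1 a KO peak, where 19.4% and 10.2% of all genes of that length had one. Of the 18 from 20 to 50 kb, 9 had a WT peak and 6 a KO peak, against 53.5% and 35%. All 4 of 50 kb or more had peaks in both lists, against 88.1% and 73.2% of all such genes. The scatter of peak number against length sets each carrier beside the mean of all genes, which was higher in each longer range in both lists.

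**Figure D2:**
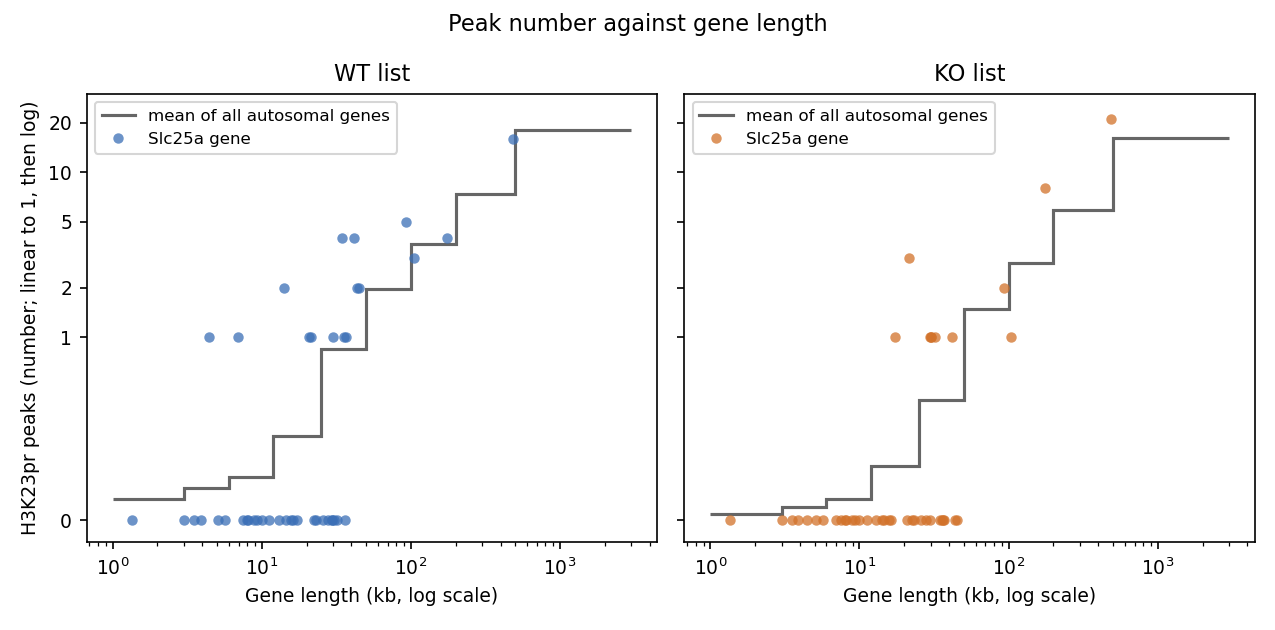
Number of peaks (vertical axis, linear to 1 and logarithmic above) against gene length in kb (logarithmic axis) for the 43 carrier genes (points) in the WT list (left) and KO list (right), with the mean of all autosomal protein-coding genes in each length range (grey steps). Slc25a13, at 176 kb, had 8 KO peaks, where genes of 100 to 200 kb had a mean of 2.83.

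Summits were low throughout. A summit is the position in a peak with the most IP fragments, and the lowest summit in either list had 4. At carrier genes the range was 4 to 8 fragments in both lists, with a median of 6 for WT and 5 for KO. Leaving out Slc25a21 turned this order, to 5 for WT and 6 for KO. The median over all peaks of autosomal protein-coding genes was 5 in both lists. A summit of 8 fragments has an exact Poisson 95% interval of 3.45 to 15.8, and one of 4 an interval of 1.09 to 10.2. These intervals overlap, but summits are maxima of regions that passed the caller. They therefore show only how few fragments each summit rests on, and do not compare peaks. Summits of 8 were reached by 5 WT peaks, in Slc25a21, Slc25a33, Slc25a13, Slc25a48 and Slc25a17, and by 2 KO peaks, in Slc25a12 and Slc25a17. Of all gene peaks, 4.8% in WT and 4.08% in KO had 8 or more, against 10.2% and 4.88% of the carrier peaks. The authors' fold over local background had a median of 3.55 in WT and 3.83 in KO, equal to those of all gene peaks. Without Slc25a21 these medians were 3.55 and 4.32. A caller q of 0.05 or smaller was reached by 5 of the 49 WT peaks, 10.2%, and by 17 of the 41 KO peaks, 41.5%. Over all gene peaks these shares were 10.8% and 29.0%. The same height was scored differently in the 2 lists. With 6 fragments over the lowest background, -log10 q was 1.38 in KO, which passed, and 1.07 in WT, which did not. With Slc25a21 left out, the carrier shares were 12.1% in WT, 4 of 33 peaks, and 60% in KO, 12 of 20 peaks. Leaving this gene out was decided after seeing the data.

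**Figure D3:**
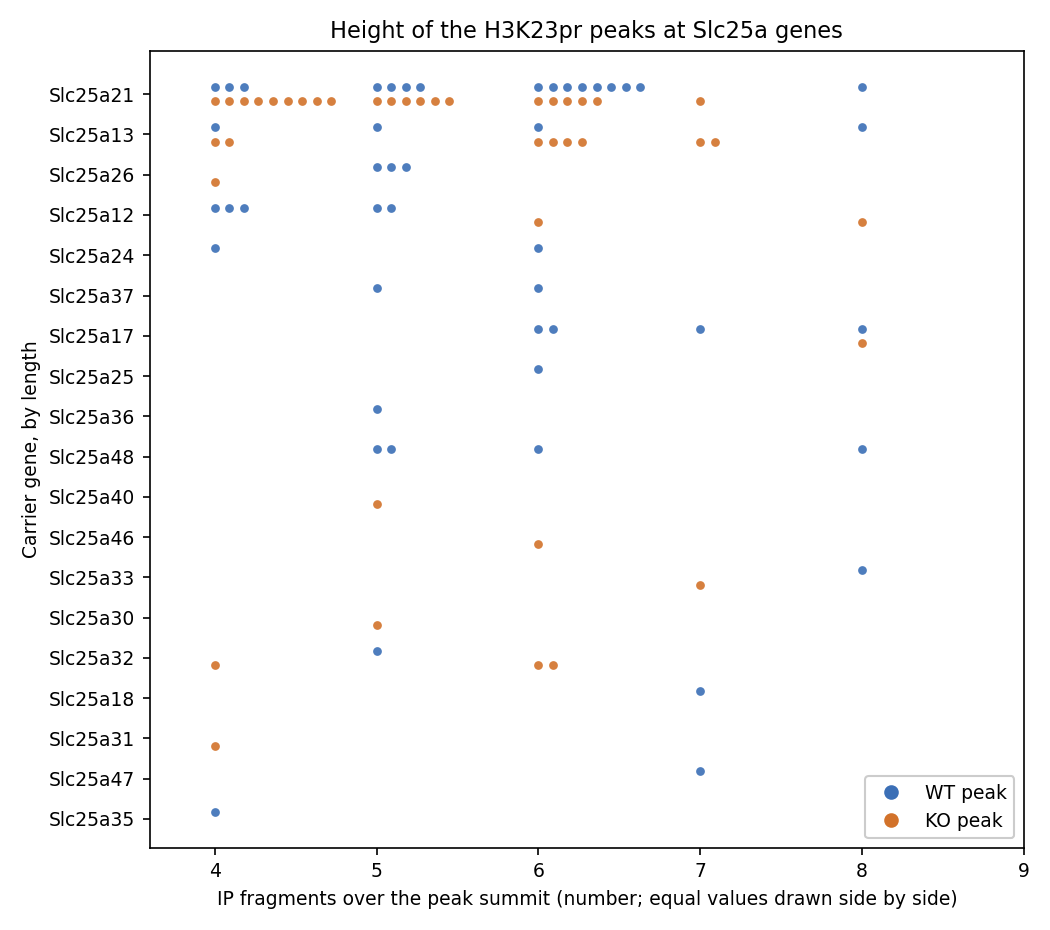
IP fragments over the summit (horizontal axis) of each peak at the named carrier genes with a peak, ordered by length, with WT peaks in blue, KO peaks in orange and equal values drawn side by side. All points lie between 4 and 8 fragments in both lists.

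No site was shared. Overlap with the other list was 0 for the 49 WT peaks, an upper 95% limit of 7.25%, and 0 for the 41 KO peaks, an upper limit of 8.6%. Over all gene peaks 0.844% of WT peaks and 1.09% of KO peaks did, shares that lie below both limits. Summits of the 2 lists came within 500 bp of each other at 4 sites. This is 8.16% of the carrier WT peaks (2.27 to 19.6) against 2.61% of WT gene peaks, and 9.76% of the carrier KO peaks (2.72 to 23.1) against 3.46%. Both intervals held the share of all gene peaks. One such pair lay in Slc25a17, on chromosome 15, where the WT peak ran from 81337939 to 81338109 and the KO peak from 81338325 to 81338433, each with 8 fragments and 215 bp apart. Local background there was 1.45 fragments in WT and 0.879 in KO, so the folds were 3.67 and 4.79. The other 3 lay in Slc25a21, with 158 to 228 bp between the peaks and 4 to 7 fragments at their summits.

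Peaks were placed mostly inside the genes. Of the 49 WT peaks, 7 touched the 2 kb on either side of a gene end, 14.3% (5.94 to 27.2), against 12.1% of all WT gene peaks. Of the 41 KO peaks 1 did, 2.44% (0.0617 to 12.9), against 9.19%. Counted by gene, 6 carriers had a WT peak near an end, where 14.7% of all genes did, and 1 had a KO peak there, where 8.05% did. The WT genes were Slc25a13, Slc25a48, Slc25a35, Slc25a47, Slc25a36 and Slc25a12, and the KO gene was Slc25a32. RefSeq start sites with strand were listed for 32 carriers. Within 2 kb of a start, Slc25a13 and Slc25a48 had a WT peak and none had a KO peak, against 8.6% and 4.73% of the 16456 autosomal genes with a listed start. None of these 32 carriers had a peak of either list inside the window from 250 bases before to 50 after a start, where 0.541% of the 16456 genes had a WT peak and 0.219% a KO peak.

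The 4 promoters below show what surrounds those starts: Slc25a13 and Slc25a48, which had WT peaks close by, the Slc25a13 paralogue Slc25a12, and Slc25a21, the gene with most peaks. They are RefSeq sequences of GRCm38.p6, from 250 bases before to 50 after the outermost start, read in the direction of transcription, with each CG dinucleotide in capitals. CG dinucleotides are where mammalian DNA is methylated, and runs of them mark CpG island promoters.
Slc25a13 (chr6:6217124-6217423, minus strand): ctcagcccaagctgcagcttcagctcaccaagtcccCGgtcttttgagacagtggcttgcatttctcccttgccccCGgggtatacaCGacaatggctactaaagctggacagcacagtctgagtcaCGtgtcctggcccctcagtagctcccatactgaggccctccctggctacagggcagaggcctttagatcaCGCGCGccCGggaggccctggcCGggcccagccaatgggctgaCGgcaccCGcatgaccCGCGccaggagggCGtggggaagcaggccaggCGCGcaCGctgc
Slc25a48 (chr13:56438105-56438404, plus strand): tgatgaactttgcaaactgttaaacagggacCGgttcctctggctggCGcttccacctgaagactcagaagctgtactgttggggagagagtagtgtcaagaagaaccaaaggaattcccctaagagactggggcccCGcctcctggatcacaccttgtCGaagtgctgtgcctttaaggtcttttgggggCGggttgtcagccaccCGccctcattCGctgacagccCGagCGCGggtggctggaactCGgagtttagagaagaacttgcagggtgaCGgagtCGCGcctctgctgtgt
Slc25a12 (chr2:71367706-71368005, minus strand): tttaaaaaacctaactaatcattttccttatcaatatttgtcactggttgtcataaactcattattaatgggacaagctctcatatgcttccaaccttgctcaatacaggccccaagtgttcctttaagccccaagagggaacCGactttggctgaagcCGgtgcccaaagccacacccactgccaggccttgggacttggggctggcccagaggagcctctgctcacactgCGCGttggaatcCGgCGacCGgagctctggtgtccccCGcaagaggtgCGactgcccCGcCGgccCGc
Slc25a21 (chr12:57197423-57197722, minus strand): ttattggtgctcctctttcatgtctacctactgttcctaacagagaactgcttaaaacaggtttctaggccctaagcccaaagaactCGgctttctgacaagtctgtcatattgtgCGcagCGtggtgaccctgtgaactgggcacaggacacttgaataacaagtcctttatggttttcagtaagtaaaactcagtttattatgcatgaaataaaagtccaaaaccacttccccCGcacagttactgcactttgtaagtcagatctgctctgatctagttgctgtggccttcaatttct

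Slc25a13 had 17 CG dinucleotides in this window, Slc25a48 14, Slc25a12 12 and Slc25a21 4. The 32 carrier promoters held a median of 18 CG (1 to 47), against 14 over all 16456. The 14 whose genes had a peak in either list had a median of 18 (4 to 47), and the 18 without a peak 20.5 (1 to 45). The ranges of carriers with and without peaks overlapped. The half-site TGCGCA, part of the motif of NRF1, a factor that activates nuclear genes for mitochondrial proteins, read on both strands, was found in 4 carrier promoters, those of Slc25a3, Slc25a21, Slc25a31 and Slc25a36, or 12.5%, against 10.1% of all promoters. The CCAAT box was found in 17, 53.1% against 39.1%, and AAGGTCA, a half-site of ERR nuclear receptors, in Slc25a34 alone, against 4.00% of all.

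Slc25a13 and Slc25a12, the carriers of aspartate and glutamate, held the most peaks among the amino acid carriers. They are long genes, of 176 and 93.5 kb, where the median of the class was 15.7 kb. Of the 9 genes of this class, 3 had a WT peak and 2 a KO peak, against 43.1% and 30.5% of all genes. Slc25a13 encodes citrin, the liver form, and Slc25a12 encodes aralar, its paralogue. Both export aspartate from mitochondria in the malate-aspartate shuttle, and citrin also supplies aspartate to the urea cycle. Slc25a13 (chromosome 6, 6041218 to 6217304) had 4 WT peaks with 4, 6, 8 and 5 fragments in order of rising coordinate. In KO it had 8, with 4, 4, 6, 7, 6, 6, 6 and 7 fragments. The gene runs toward lower coordinates, and 3 of the 4 WT peaks lay from 1.07 kb before to 12.2 kb after the start, with 19 summit fragments in sum. All 8 KO peaks lay further in, from 18.5 to 154 kb after the start, with 46 summit fragments in sum. One WT peak of 4 fragments, at 65.9 kb, lay in the stretch of the KO peaks. The limits of both stretches were set after the peaks were seen, so their separation is not a result of its own. The strongest WT peak, 6215870 to 6216084, had a fold of 5.32, ranked 1013 of 54397 by caller p, and stood 1265 bp inside the start.

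The KO density in Slc25a13, 44.4 peaks per Mb (19.2 to 87.5), was reached by 190 of the 1780 autosomal genes of 100 to 300 kb, or 10.7%, whose median was 15.5. Its WT density of 22.2 (6.05 to 56.9) was close to their median of 24.0. Slc25a13 was compared in this way because of its many peaks, so its place is that of a gene chosen for being high. The 500 kb on either side of the gene held 25 KO and 28 WT peaks per Mb, within the interval of the gene in both lists.

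Slc25a12 (chromosome 2, 71274270 to 71367781) showed a different placement. Its 5 WT peaks, of 4, 5, 4, 5 and 4 fragments, lay from 52.2 to 91.8 kb after the start, at 55.9% to 98.1% of the gene. Its 2 KO peaks had 8 fragments at 6.78 kb and 6 at 73.4 kb. The first of these, 71360932 to 71361033, had the highest fold of any carrier peak, 5.74, and ranked 636 of 41907. The listed WT peaks of the 2 paralogues lay in different parts of the gene. In Slc25a13 3 of 4 lay close to the start, and in Slc25a12 5 of 5 lay far from it. These stretches were chosen after the peaks were seen. The Slc25a12 WT peaks had -log10 q of 0.365 to 0.747, so none reached a caller q of 0.05. Both Slc25a12 KO peaks did, at 1.38 and 3.04, though equal heights were scored differently in the 2 lists. Of the Slc25a13 WT peaks, only that of 8 fragments did, at 2.16. The contrast in WT placement therefore rests mostly on weak calls.

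Of the other 7 amino acid carriers, Slc25a18, a glutamate carrier, had 1 WT peak of 7 fragments over a raised local background of 1.45 fragments, where the lowest WT background was 0.692. The other 6 had no peak in either list. These were Slc25a15, the ornithine carrier of the urea cycle, its relative Slc25a2, the glutamate carrier Slc25a22, the glycine carrier Slc25a38, the basic amino acid carrier Slc25a29, and Slc25a44, described as a branched-chain amino acid carrier.

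**Figure D4:**
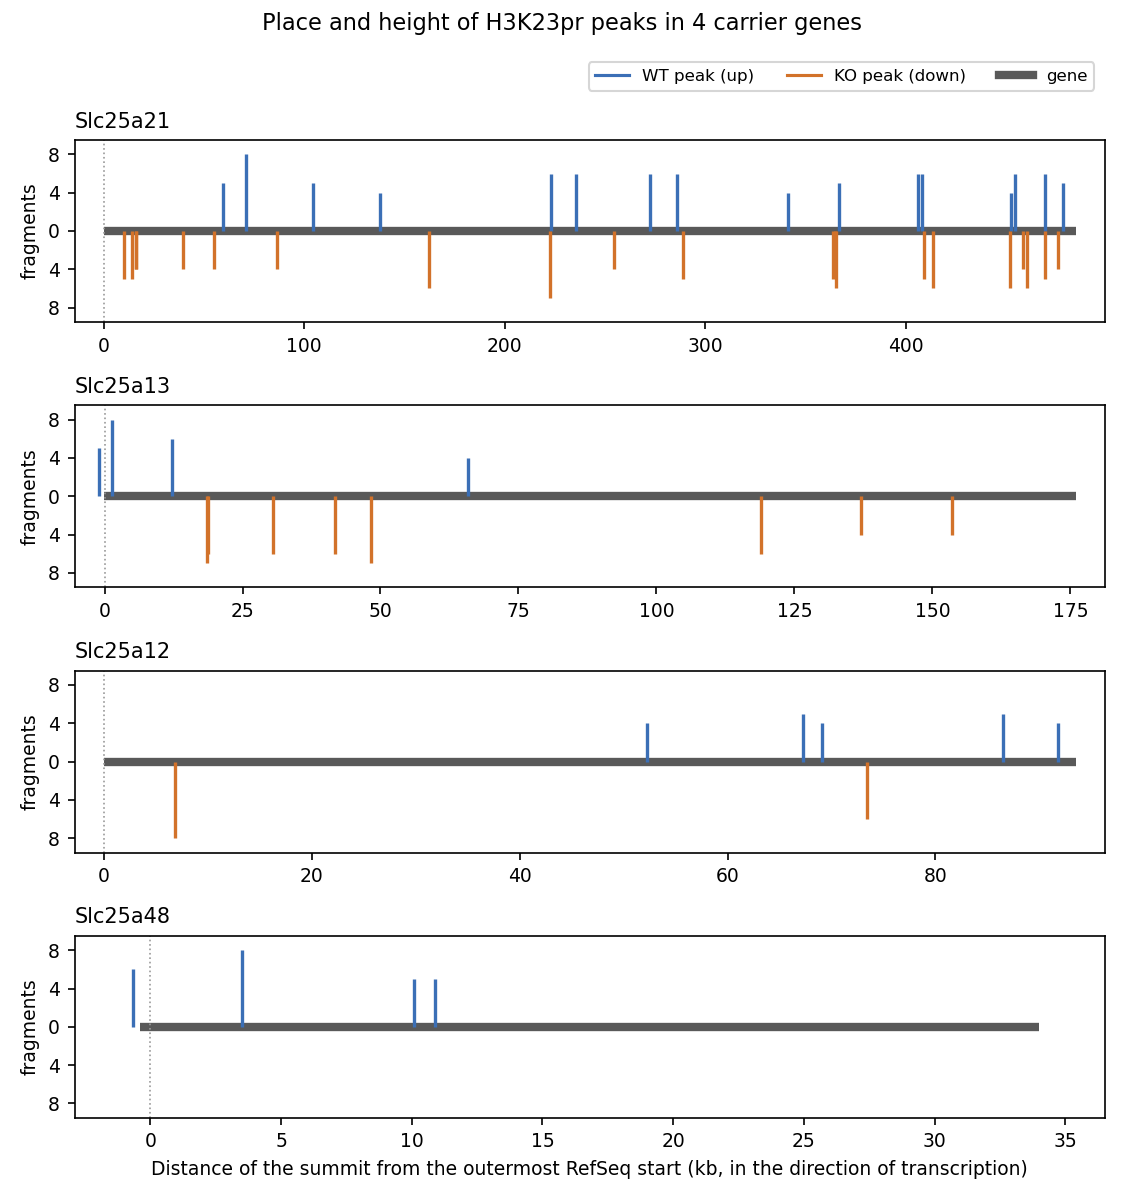
Summit fragments (vertical axis) of WT peaks (blue, upward) and KO peaks (orange, downward) against distance in kb from the outermost RefSeq start (dotted line) in Slc25a21, Slc25a13, Slc25a12 and Slc25a48, each drawn in the direction of transcription with the gene in grey. In Slc25a13 the WT peaks lie between 1.07 kb before and 12.2 kb after the start, with 1 at 65.9 kb. The KO peaks begin at 18.5 kb. These limits were read from the peaks themselves.

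The carboxylate carriers were represented by 1 gene of 4, which had peaks in both lists. These are too few genes to set against the 43.1% and 30.5% of all genes. Slc25a21 exchanges oxoadipate, a product of lysine and tryptophan breakdown, for oxoglutarate, and it spans 485 kb (chromosome 12, 56712634 to 57197472). Its 16 WT peaks had 4 to 8 fragments and its 21 KO peaks 4 to 7. This was 32.7 WT peaks per Mb (18.7 to 53.2) and 43.0 KO peaks per Mb (26.6 to 65.7). Among the 532 autosomal genes of 300 kb or more, 80 had at least this WT density (15%, median 21.2) and 22 at least this KO density (4.14%, median 16.6). Slc25a21 was compared because it held the most peaks of the carriers, so these places are those of a gene chosen for being high. The 500 kb on either side held 32 WT and 28 KO peaks per Mb, inside the intervals of the gene. In the first 58 kb after the start, a stretch also chosen after the peaks were seen, the KO list had 6 peaks of 4 or 5 fragments and the WT list none. From 58 to 400 kb there were 10 WT and 8 KO peaks, and beyond 400 kb 6 and 7. One KO peak, 56908242 to 56908375, also lay within 2 kb of Gm30001. The strongest WT peak, 57126452 to 57126608, had 8 fragments and a fold of 5.32. The other carboxylate carriers, Slc25a1 for citrate, Slc25a10 for dicarboxylates and Slc25a11 for oxoglutarate, are short genes of 3.01, 9.32 and 3.51 kb, and none had a peak. Of all genes shorter than 20 kb, 19.4% had a WT peak and 10.2% a KO peak. Slc25a1 is the route by which mitochondrial citrate reaches the cytosol for lipogenesis.

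Of the 9 nucleotide carriers, 5 had a WT peak and 3 a KO peak, against 43.1% and 30.5% of all genes. They held 9 WT and 3 KO peaks. Their median length was 30.2 kb, against 17.5 kb for all genes. The 43.1% and 30.5% were not matched for length, here or in the other classes. Slc25a17, the peroxisomal carrier of CoA and adenine nucleotides, had 4 WT peaks of 6, 8, 7 and 6 fragments, and 1 KO peak of 8. Of the 4851 autosomal genes of 20 to 50 kb, 1.96% had 4 or more WT peaks, a cutoff taken from the count of Slc25a17 itself. Slc25a33, a pyrimidine nucleotide carrier, had 1 peak in each list, with 8 fragments in WT (chromosome 4, 149753115 to 149753329, fold 5.32) and 7 in KO, 17.4 kb apart between summits. Its relative Slc25a36 had 1 WT peak of 5 fragments at the far end of the gene. The calcium-regulated ATP-magnesium/phosphate carriers Slc25a24 and Slc25a25 had WT peaks alone, of 6 and 4 fragments and of 6 fragments. The Slc25a25 peak stood over a background of 1.45 fragments, with a fold of 2.86. The testis ADP/ATP carrier Slc25a31 had 1 KO peak of 4 fragments. Slc25a4, the ADP/ATP carrier of heart and muscle, and Slc25a23 and Slc25a41 had none.

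The carriers of cofactors, glutathione and metals had WT peaks in 4 of 10 genes and KO peaks in 3, near the 43.1% and 30.5% of all genes. Slc25a32, which carries folate or FAD, had 1 WT peak of 5 fragments and 3 KO peaks of 6, 4 and 6. Of autosomal genes of 20 to 50 kb, 5.48% had 3 or more KO peaks, a cutoff likewise taken from the count of Slc25a32 itself. The last of its KO peaks (chromosome 15, 39110662 to 39110745) lay within 2 kb of the higher-coordinate end and was the only KO peak near a gene end among the 43 carriers. Slc25a26, the S-adenosylmethionine carrier, had 3 WT peaks of 5 fragments each and 1 KO peak of 4. Slc25a37, mitoferrin 1, had 2 WT peaks of 6 and 5 fragments. The first Slc25a37 peak also lay within 2 kb of Gm27222 and Gm31896. Slc25a40, a glutathione carrier, had 1 KO peak of 5 fragments, while its paralogue Slc25a39 had none. Slc25a16, Slc25a28, Slc25a42 and Slc25a51, which serve CoA, iron, CoA and NAD, had none.

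Among carriers with unknown or unsettled substrates, WT peaks were found in 3 of 7 genes and a KO peak in 1, against 43.1% and 30.5% of all genes. Slc25a48, recently linked to choline, had 4 WT peaks of 6, 8, 5 and 5 fragments and no KO peak. They lay on chromosome 13 between 56437677 and 56449409, from 0.66 kb before the start to 10.9 kb after it, within the first 32.8% of the gene. The nearest KO peak had its summit 245436 bp away. Of the autosomal genes of 20 to 50 kb, 28 of 4851, or 0.577%, had 4 or more WT peaks and no KO peak, a pattern chosen after its values were seen. Slc25a47, a carrier expressed mainly in hepatocytes, had 1 WT peak of 7 fragments near its far end (chromosome 12, 108856357 to 108856463, fold 4.12). Slc25a35 had 1 WT peak of 4 fragments, and Slc25a46, which acts in mitochondrial fusion and fission, had 1 KO peak of 6. Slc25a34, Slc25a45 and Slc25a54 had none.

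The remaining 4 carriers had no WT peak, and 1 had a KO peak, too few genes to set against the 43.1% and 30.5% of all genes. Slc25a20, the carnitine-acylcarnitine carrier that brings long-chain fatty acids to beta-oxidation, had no peak in 22.5 kb. The phosphate carrier Slc25a3 had none in 7.47 kb. Of the uncoupling-protein-like carriers, Slc25a30 had 1 KO peak of 5 fragments and Slc25a27 had none. A gene without a peak may still have held fragments below the caller's threshold, which the lists do not show.

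Genes that work with the carriers were counted in the same way. Of 26 partner genes, 7 had a WT peak and 6 a KO peak, 2 of them in both lists, with 8 and 10 peaks in all, where 43.1%, 30.5% and 22.4% of all genes had a WT peak, a KO peak and both. Their lengths ran from 3.19 kb (Timm10) to 72.5 kb (Agk), and length was not matched to that of the carriers. Ucp2 and Mtch1, family members under other symbols, had 1 WT peak of 6 fragments each, and Mtch2 had 3 KO peaks of at most 4. The malate-aspartate shuttle enzyme gene Mdh1 had 1 peak in each list, of 5 and 6 fragments, and Got2 had 1 KO peak of 6. Cpt1a, which encodes the entry enzyme of fatty acid oxidation, had 1 WT peak of 7 fragments, and Cpt2, which acts beside Slc25a20, had 2 KO peaks of at most 5. Of the import genes, Agk had 1 KO peak of 5, Timm9 1 WT peak of 4, and Tomm70a 1 WT peak of 4 and 2 KO peaks of at most 6. The pyruvate carrier genes Mpc1 and Mpc2 and the channel genes Vdac1, Vdac2 and Vdac3 had none, and Sfxn1 had 2 WT peaks.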

How the data were processed

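H3K23pr peaks of 1 WT and 1 KO liver IP, each called against its own input, were used as deposited. The submitters' processing notes name cutadapt 1.9.3, Bowtie2 2.2.4 and the build mm10. Per the file headers, MACS 2.1.1.20160309 called peaks in each library with a p cutoff of 0.001, with no more than 2 duplicates kept per position. The deposited pileup was read as a signal, in IP fragments over the summit. The deposited fold is a ratio to local background, with 1 added to both, and background was recovered from it. The deposited p and q values are -log10 values and were used to rank and filter peaks. Positions are 1-based in mm10.

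Genes, starts and promoters came from RefSeq tables of GRCm38.p6, the assembly of mm10. Of the carriers, 32 of 43 matched a start by gene ID. Among the others were Slc25a2, Slc25a26, Slc25a27, Slc25a32, Slc25a35, Slc25a37, Slc25a41, Slc25a44, Slc25a46 and Slc25a51. A peak belonged to a gene when it overlapped the gene and 2 kb around it by 1 bp. Peak sequences were not used here. Substrate classes were written from general knowledge. The members, classes, partner list and length ranges were chosen with earlier results of these data known. Genes were named for the 8 highest summits in each list and the most peaks (5 places, with ties), and the others by class. A carrier that is counted but not named is not reported here. Intervals are exact at 95% and cover counting error only, and reads had no molecular identifiers. There was no test, since each genotype had 1 library. The code that assigns peaks to genes was tested on simulated data. Python 3.11.15, pandas 2.3.3 and scipy 1.17.1 were used.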

Additional observations from a re-analysis of the deposited data

How the results depend on the processing

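Of 52 alternative values for 8 counts, 34 stayed within 1.5 times the reported one, 15 were lower and 3 higher. At a caller q of 0.05 or smaller, carrier genes with a peak numbered 5 in WT, 7 in KO and 4 in both lists, peaks 5 and 17, and WT genes with a peak near an end 1. With the strongest 20000 peaks of each list these were 9, 7, 4, 24, 23 and 3. The shares of all genes with a WT or a KO peak at both cutoffs stand beside the gene counts above. Peaks of at least 5 fragments left 27 in KO. Without Slc25a21, an alternative added after seeing the data, 20 KO peaks were left. Near gene ends, 1 kb gave 0 KO genes, and 5 kb gave 12 WT and 3 KO genes. Overlap with the other list was 0 under each other setting run, but summits within 500 bp gave 4. Placing peaks by their summit, the gene body alone and 10 kb flanks moved no count beyond 1.5 times. No paired analysis was possible because each genotype had 1 library. Summits of 4 to 8 fragments limit every value.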

Other observations

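The family has 4 protein-coding members on the X chromosome, which were outside the autosomal set. Slc25a14, a brain relative of the uncoupling proteins, had 2 WT peaks of at most 6 fragments and no KO peak. Slc25a53 had 1 KO peak of 4 fragments and no WT peak. Slc25a5, the ADP/ATP carrier gene of most proliferating cells, and Slc25a43 had no peak in either list.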
